A study of Mus musculus with 95 samples.

Results

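The genes that copy DNA and supply its building blocks were followed as 1 set of 38 in sorted mouse blood stem and progenitor cells, at rest and during recovery from transplantation. The set was chosen by name from the gene symbols of the count table, which holds 53465 entries, and all 38 were found there. It holds the replicative helicase and its helpers (Mcm2 to Mcm7, Mcm10, Cdc45 and Gins1 to Gins4), the origin factors Orc1, Orc6, Cdc6 and Cdt1, and the sliding clamp Pcna with the clamp loader Rfc1 to Rfc5. The polymerases and primase (Pola1, Pola2, Pold1, Pole, Prim1 and Prim2), the genes that handle single strands and join Okazaki fragments (Fen1, Lig1, Rpa1 and Rpa2), the makers of nucleotides (Rrm1, Rrm2, Tyms, Dut and Tk1) and the histone messenger binding protein Slbp complete it.

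The study collected marrow from B6.SJL mice aged 8 to 12 weeks and sorted it into 3 populations named HSC, HPC-1 and HPC-2, within the fraction that lacks lineage markers and carries cKIT and SCA-1. Untreated mice gave the steady-state groups, where HSC and HPC-1 have 8 libraries each and HPC-2 has 7. The other mice had been lethally irradiated with 900 cGy and given 8000 cells of that fraction, and the effects of irradiation, injection and regrowth from few cells cannot be told apart. Sampling took place at 8 times from 3 to 16 weeks after the transplant, with 3 libraries for each population and week. The libraries of each week share a run of 12 description numbers that holds no other week. Week and run thus cannot be told apart. The times are grouped here as weeks 3-4 (n = 6), weeks 5-8 (5, 6 and 8 weeks, n = 9) and weeks 10-16 (10, 13 and 16 weeks, n = 9). The gate text in the labels is the same for all 3 populations (CD48-CD150+), so the populations are taken from their names. The 95 libraries are bulk RNA-seq of sorted cells made with a kit for very small RNA amounts.

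In a dividing cell the MCM2-7 ring is loaded on origins by ORC, CDC6 and CDT1, then switched on as a helicase by CDC45 and GINS when S phase starts. PCNA, placed on the DNA by the RFC loader, holds the polymerases to their template, while ribonucleotide reductase (RRM1 and RRM2), thymidylate synthase, thymidine kinase and dUTPase keep the pool of DNA precursors. Most of these genes are known targets of the E2F factors and are expressed with proliferation, and blood stem cells of the undisturbed adult marrow are known as cells that rarely divide. The level of these messengers in bulk RNA depends on how many cells cycle and on how much each cell makes, and these cannot be told apart here.

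The promoters are shown because several genes of the set that passed a test below carry E2F letters near the start site. RefSeq promoter windows (GRCm38.p6, 250 bases before to 50 after the start) matched 31 of the 38 genes by symbol, in 35 windows. The strings searched, on both strands, were TTTCCCGC, TTTCGCGC, TTTGCCGC and TTTGGCGC, and overlapping matches were counted one by one. They occur in 12 of 35 windows (34.3%), 1 for each of 12 genes, against 744 of 32851 windows of the same length for all genes (2.265%). The genes are Mcm3, Mcm5, Mcm6, Mcm7, Cdc6, Cdt1, Gins3, Lig1, Orc1, Pola1, Pold1 and Rfc3, with 18 matches, of which 11 begin before the start site and 7 after it. The 250 bases before the start are printed below for 3 helicase genes that were called lower in HSC in at least 1 comparison, and for Tyms, which was also called and has no such string in its window. Capitals mark the matched letters. A match is a description of the letters and not a measured binding site.
Mcm5, chr8:75109259-75109508, plus strand: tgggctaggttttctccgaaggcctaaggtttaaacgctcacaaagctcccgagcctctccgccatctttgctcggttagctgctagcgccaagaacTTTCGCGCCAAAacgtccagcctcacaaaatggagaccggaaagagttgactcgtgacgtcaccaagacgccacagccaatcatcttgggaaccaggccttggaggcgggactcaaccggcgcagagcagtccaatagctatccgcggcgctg
Mcm6, chr1:128359706-128359955, minus strand: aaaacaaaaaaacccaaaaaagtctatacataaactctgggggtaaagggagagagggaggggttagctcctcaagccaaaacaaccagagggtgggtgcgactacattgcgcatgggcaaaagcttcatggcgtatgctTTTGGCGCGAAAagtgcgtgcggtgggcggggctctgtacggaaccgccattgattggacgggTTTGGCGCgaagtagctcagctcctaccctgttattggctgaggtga
Mcm7, chr5:138171884-138172133, minus strand: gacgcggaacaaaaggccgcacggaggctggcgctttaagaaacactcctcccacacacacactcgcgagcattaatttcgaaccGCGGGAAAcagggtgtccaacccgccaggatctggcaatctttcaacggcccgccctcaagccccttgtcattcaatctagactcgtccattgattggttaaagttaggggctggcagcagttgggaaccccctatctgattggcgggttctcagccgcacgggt
Tyms, chr5:30073626-30073875, minus strand: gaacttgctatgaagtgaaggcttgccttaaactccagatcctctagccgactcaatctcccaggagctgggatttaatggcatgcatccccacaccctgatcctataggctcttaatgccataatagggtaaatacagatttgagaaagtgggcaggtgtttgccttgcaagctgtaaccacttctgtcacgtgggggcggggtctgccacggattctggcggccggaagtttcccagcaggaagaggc

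In the Mcm5 window the matches begin 153 and 149 bases before the start and overlap, so 1 run of capitals holds both strands' reading. Mcm6 has matches that begin 110, 106 and 47 bases before the start, and Mcm7 has 1 at 165 bases before it and another 17 bases after it. Dut and Pcna, like Tyms, have no match in their windows. Neither have Mcm10 and Rrm1, which were called, and the called genes Rfc2 and Mcm4 have no window among those used. Cdc6, Gins3, Lig1, Orc1, Pola1, Pold1 and Rfc3 have matches and were not called in any comparison. A relation between matches and calls was not tested. CCAAT letters occur in 21 of the 35 windows (60%) against 37.41% of all windows, and the TTTGAA letters of the cell cycle homology element in 4 (11.43%) against 17.89%. The windows of the set are richer in G and C, with a median of 60% against 52.67%, and the E2F strings are themselves rich in G and C, and the part of base composition in their share was not tested.

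Several libraries stood apart, which bears on every value below. The libraries held between 3551908 and 8492759 counts (median 5628592). Fewer than 10000 genes were detected in 12 libraries, 3 of the 8 HSC and 4 of the 7 HPC-2 at steady state, and the other 5 in HSC and HPC-2 at 13 and 16 weeks. In 6 pairs of libraries with different labels the counts were nearly the same, at 1.20 to 3.79 chi-square units per degree of freedom, where the next pair of 4465 stood at 11.7. One pair joins HSC steady-state replicate 1 to an HPC-2 library at 13 weeks, and that HSC library, together with 4 early ones (the 3 of week 3, and replicate 1 of week 4), lay nearer to the mean HPC-2 profile than to the HSC profile. Another pair, at 1.79 units, joins steady-state HPC-1 replicate 7 to steady-state HPC-2 replicate 7. That HPC-2 library and replicate 5 of the same group lay nearer to the mean HPC-1 profile (rho of 0.884 and 0.881) than to the HPC-2 profile (0.775 and 0.813). Of the sort markers at steady state, Cd48 had medians of 2.72 CPM in HSC, 1095 in HPC-1 and 360 in HPC-2, and Slamf1 (CD150) of 68.1, 0 and 0.155. Flt3, which is not part of the gate and was chosen here as a marker of HPC-1, had medians of 1.82, 184 and 0. Slamf1 is thus near 0 in HPC-2, and Fgd5 is at 0 in all HPC-2 libraries of that group. For some values that moved by much when these libraries were left out, the value without them is given. Nothing in the labels ties each library of a group to its own animal, so p-values measure only the spread between these samples, which may be technical.

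Levels differed widely within the set. Per kilobase of transcript, over all 95 libraries, the most abundant were Dut, the dUTPase, at 522 CPM (counts scaled to the library total) per kilobase, Pcna at 409, Rfc4 at 357 and Slbp at 289. Prim1, the small primase subunit, followed at 184, Orc6 at 181 and Mcm6 at 178. At the other end stood Fen1, the flap endonuclease, at 2.71, Mcm10, which helps start the helicase, at 4.93, Pole, the leading-strand polymerase, at 5.05, and Orc1 at 6.22.

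The steadiness of the genes differed as much as their levels. The coefficient of variation over all libraries was lowest for Dut (25.8%) and Pcna (27.6%) and highest for Pold1, the lagging-strand polymerase (214%), Mcm10 (179%) and Pola2, a subunit of the priming polymerase (150%). Fen1 had no counts in 23 libraries, Orc1 in 19, Gins3 in 18 and Mcm10 in 13, while 10 of the 38 genes had counts in every library. All 38 had counts together in 55 libraries. Across the 38 genes the coefficient of variation ran with transcript length (Spearman's rho = 0.51) and against the mean level (rho = -0.62), a description over genes that share the same libraries.

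**Figure D1:**
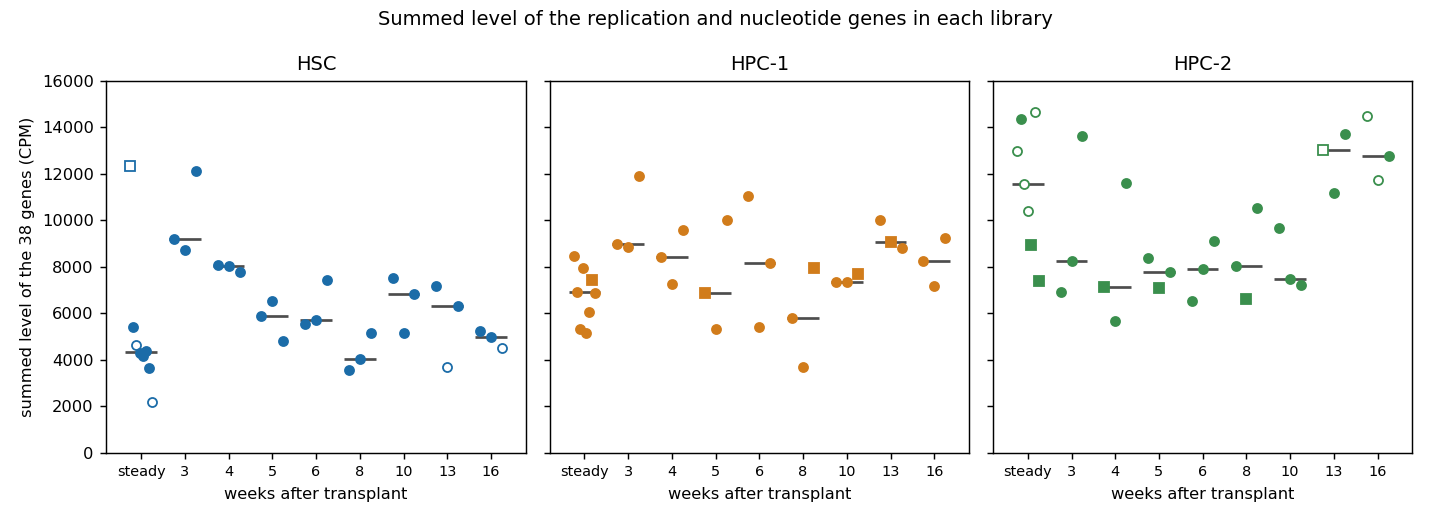
Summed level of the 38 genes (CPM, vertical axis) in each of the 95 libraries at steady state and at each week after transplant (horizontal axis), with 1 panel per population. Bars are group medians, open symbols mark libraries with fewer than 10000 detected genes and squares mark libraries in a nearly identical pair. The 6 HSC libraries of weeks 3-4 sit between 7783 and 12113 CPM, above the other HSC libraries except steady-state replicate 1 at 12331.

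At steady state the set stood lowest in HSC and highest in HPC-2. The summed level of the 38 genes ran from 2177 to 12331 CPM in HSC with a median of 4325, from 5172 to 8446 in HPC-1 with a median of 6898, and from 7377 to 14663 in HPC-2 with a median of 11554. The HSC value of 12331 belongs to replicate 1. Without it the HSC libraries ended at 5393 CPM, below every HPC-2 library and overlapping the low end of HPC-1. In HPC-2 the 5 libraries outside the nearly identical pairs ran from 10400 to 14663 CPM.

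In steady-state HSC against HPC-2, Mcm4, Mcm7 and Tyms were lower and 0 of 38 genes were higher. Lower calls made up 0.256% and higher calls 1.08% of the 11348 genes tested, with the edgeR quasi-likelihood test and a Benjamini-Hochberg adjusted p under 0.05. Of the 38 fitted differences 35 were negative, all but Mcm10, Gins4 and Pole, and their median was -0.98 on the log2 scale against 0.23 over all genes tested. An unadjusted p under 0.05 was reached by 13 genes of the set, all lower, where 2.85% of all genes were lower at that level. The 6 genes of the MCM2-7 ring were all lower in the fit, with a median of -1.92, and 5 of them reached that unadjusted level.

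Mcm4, a ring subunit, ran from 20.9 to 215 CPM in HSC with a median of 56.8 and from 93.3 to 712 in HPC-2 with a median of 300. The HPC-2 libraries were mostly above the HSC libraries, and the 2 ranges overlapped. The fitted log2 difference was -2.19 (SE 0.52, adjusted p = 0.0403, edgeR quasi-likelihood). Mcm7, another subunit of the ring, ran from 32.1 to 319 CPM in HSC (median 99.0) and from 141 to 795 in HPC-2 (median 384), again with overlap, and fell by 1.84 on the log2 scale (SE 0.47, adjusted p = 0.0478, edgeR). Tyms, which makes thymidylate, ran from 110 to 373 CPM in HSC (median 184) and from 332 to 889 in HPC-2 (median 483), with only the top of the HSC range reaching the HPC-2 range, and differed by -1.33 (SE 0.32, adjusted p = 0.0435, edgeR). Without HSC replicate 1 and the nearly identical HPC-2 libraries (n = 5 left), Mcm4 ended at 114 CPM in HSC and began at 228 in HPC-2, and Mcm7 ended at 152 and began at 243. Both then had no overlap, and the share of all genes without overlap in these libraries was not counted.

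These calls sat close to the threshold. Leaving out 1 of the 23 steady-state libraries at a time ended the call of Tyms in 15 cases, of Mcm7 in 20 and of Mcm4 in 14, with adjusted p of at most 0.0806, 0.0996 and 0.0755, and gave 0 to 9 calls in the set. With the replicate number or the description run as a block all 3 calls were lost, with adjusted p of 0.157 to 0.235 in edgeR. The 9 calls came without HSC replicate 1, which also moved the median of the set from -0.98 to -1.59. Without all libraries in nearly identical pairs 11 genes were called lower, where the calls over all genes went from 151 to 1574. Without those of fewer than 10000 detected genes 1 was called, Mcm5, and 69 over all genes. Just beyond the threshold in the full fit lay Pola2 at -4.15 (SE 1.16, adjusted p = 0.0725, edgeR), whose HSC level was between 0 and 28.3 CPM, and Mcm6 at -2.04 (SE 0.58, adjusted p = 0.0759, edgeR).

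HPC-1 stood between them. For HSC against HPC-1, 0 of 38 genes were called in the edgeR test, where 0.132% of all genes were higher and 0.441% lower. The median difference was -0.52 (all genes 0.08), 25 of 38 were negative, and 2 were lower at an unadjusted p under 0.05 (2.39% of all genes), Tyms at -1.15 (SE 0.31, adjusted p = 0.107, edgeR) and Rfc4 at -0.89 (SE 0.38, adjusted p = 0.879, edgeR). DESeq2 called 0 and limma voom with sample weights 5, all lower (Dut, Tyms, Pcna, Rfc4 and Slbp), and over all genes they called 150 and 1016, where edgeR called 65.

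For HPC-1 against HPC-2, 0 of 38 were called (0.00881% of all genes higher, 0.0176% lower). The median was -0.72 (all genes 0.22) and 10 genes were lower at an unadjusted p under 0.05 (2.80% of all genes), among them all 6 of the MCM2-7 ring, with Mcm7 at -1.59 (SE 0.47, adjusted p = 0.135, edgeR). DESeq2 called 4 (Mcm7, Mcm2, Pold1 and Mcm5) and voom 0, and 7 were called lower without the nearly identical libraries. Over all genes these settings called 258, 3 and 1544, where the full edgeR fit called 3. In these 3 contrasts the helicase group had medians of -0.30, -1.82 and -1.39, and the clamp and loader group -0.68, -0.62 and 0.04, for HSC against HPC-1, HSC against HPC-2 and HPC-1 against HPC-2. The contrasts share their libraries.

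**Figure D2:**
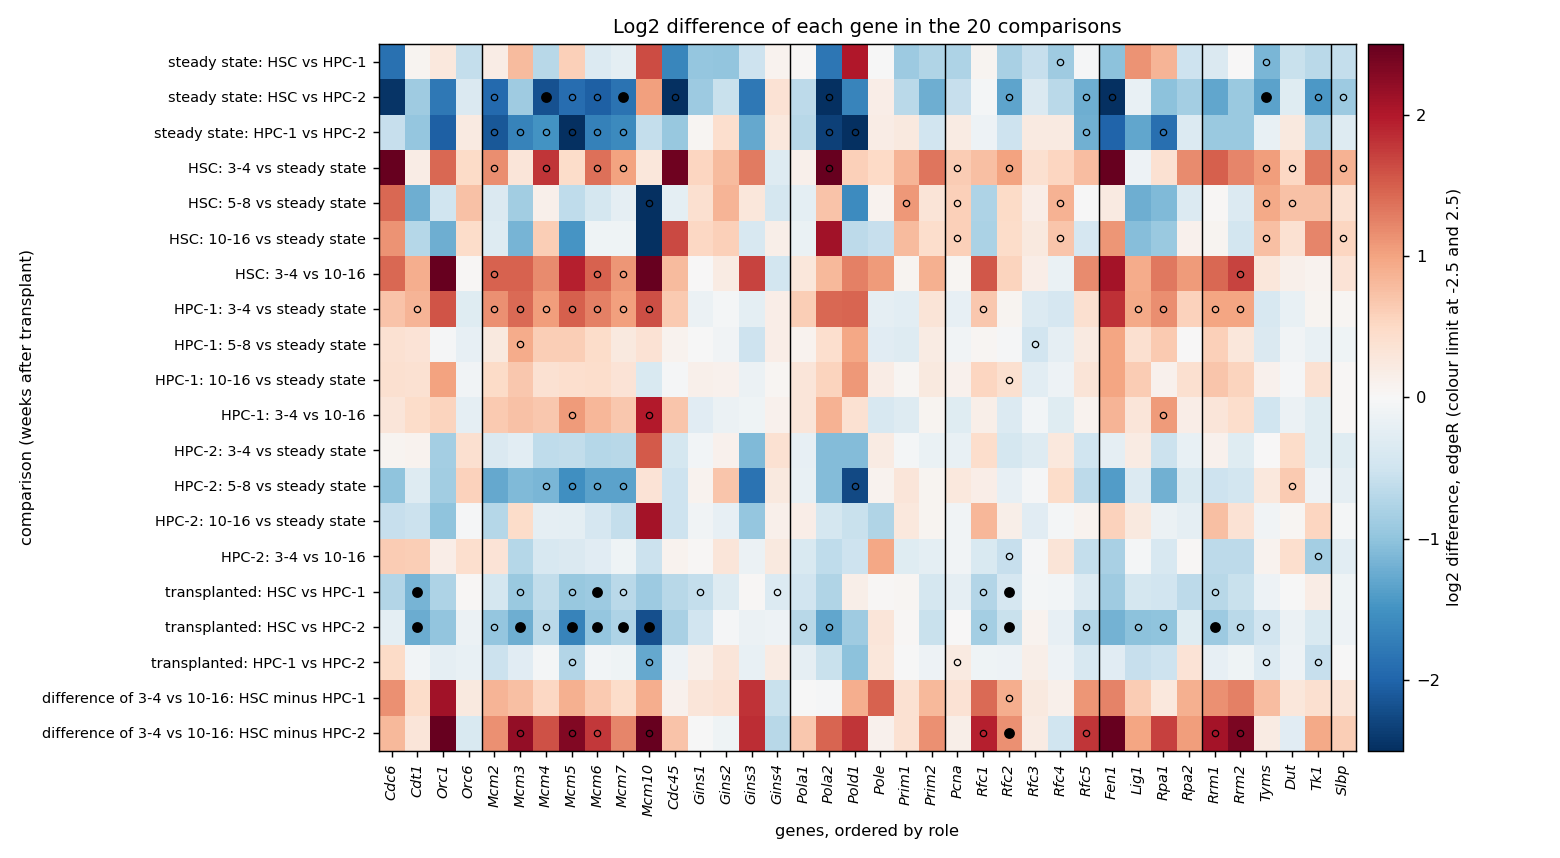
Fitted log2 difference of each of the 38 genes (columns, ordered by role) in each of the 20 comparisons (rows), with the colour scale ending at 2.5 in both directions. Filled dots mark an adjusted p under 0.05 and open dots an unadjusted p under 0.05 in the edgeR quasi-likelihood test. Filled dots occur for 10 genes, and the row of HSC at weeks 3-4 against steady state is positive for 36 of 38 genes with no filled dot.

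In HSC at 3 and 4 weeks after transplant nearly all genes of the set had a fitted level above steady state, and no single gene passed the test. Against steady state 36 of 38 fitted differences were positive, with a median of 0.82 on the log2 scale where the median of all 12541 genes was -0.03. With the replicate number as a block the median of the set was 0.47, beside 0.35 for all genes. With the description run as a block it was 0.27, below the 0.37 of all genes. The exceptions were Gins4 at -0.31 and Lig1 at -0.13. With edgeR, 0 of 38 genes were called, against 0% of all genes higher and 0.0319% lower. At an unadjusted p under 0.05, 10 of the 38 were higher and 0 lower, where 2.14% of all genes were higher. DESeq2 called 2 higher (Tyms and Rpa1) and voom 8 (Dut, Slbp, Tyms, Rfc2, Pcna, Rrm2, Mcm2 and Rpa1), and over all genes 197 and 569, where edgeR called 4. The summed level ran from 7783 to 12113 CPM with a median of 8399, above all 7 steady-state libraries other than replicate 1. The 3-week libraries lay between 8728 and 12113, and the 4-week libraries between 7783 and 8070.

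The summed nucleotide synthesis genes did not overlap in HSC between steady state and weeks 3-4. The sum of Rrm1, Rrm2, Tyms, Dut and Tk1 ran from 600 to 1941 CPM at steady state (median 965) and from 1950 to 2202 at weeks 3-4 (median 2133), without overlap but with a gap of only a few CPM. The share of all genes without overlap between these groups was not counted, for this sum or for the single genes below. Where replicate 1 is left out, the 4 early libraries that also lay nearer to HPC-2 are kept. The steady-state libraries other than replicate 1 ended at 1299. It lay at 787 to 1897 CPM (median 1432) at weeks 5-8 and 836 to 1621 (median 1373) at weeks 10-16, so the early libraries were above both later windows too. Tyms ran from 313 to 612 CPM at weeks 3-4 with a median of 374, where its steady-state range was 110 to 373, and the early libraries lay in the upper part of that range or above it. The fitted difference of Tyms was 1.04 (SE 0.30, adjusted p = 0.234, edgeR). Rrm2, the small subunit of ribonucleotide reductase, ran from 18.9 to 645 CPM at steady state (median 127) and from 340 to 564 early (median 406). The value of 645 is that of replicate 1, and the other 7 steady-state libraries ended at 339 CPM.

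Tk1, which salvages thymidine, ran from 7.03 to 228 CPM at steady state (median 64.8) and from 131 to 304 early (median 219). Rrm1, the large subunit of the reductase, ran from 0.439 to 552 CPM (median 150) and from 249 to 924 (median 454). Both overlapped between the groups, also without replicate 1, where they ended at 179 and 276. Dut ran from 248 to 644 CPM (median 350) and from 325 to 670 (median 536), with a fitted difference of 0.51 and nearly complete overlap.

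In the MCM ring the early medians were above the steady-state medians by unequal amounts, and the ranges overlapped. The sum of Mcm2 to Mcm7 ran from 191 to 3490 CPM at steady state (median 529) and from 707 to 3812 at weeks 3-4 (median 1458). Without replicate 1 the steady-state sum ended at 799.7, still above the lowest early library. Their 6 fitted differences were all positive, with a median of 1.08, and 4 had an unadjusted p under 0.05. Mcm6 ran from 18.2 to 893 CPM at steady state (median 200.2) and from 308 to 1379 early (median 588). Mcm4 had an early range of 78.4 to 616 CPM (median 219). The fitted difference of Mcm4 was 1.79 (SE 0.66, adjusted p = 0.343, edgeR). Mcm5 had an early range of 45.3 to 350 CPM (median 67.8) and a steady-state range of 0 to 604 (median 36.5), where the 604 is replicate 1 and the other 7 libraries ended at 47.9. Mcm7 ran from 118 to 542 CPM early (median 176) and overlapped its steady-state range of 32.1 to 319, which ended at 152 without replicate 1.

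Of the helicase partners, Cdc45, which joins the ring as it starts to unwind, ran from 0 to 53.4 CPM in steady-state HSC (median 16.9) and from 58.1 to 170 at weeks 3-4 (median 110), without overlap. At weeks 5-8 Cdc45 ran from 0 to 62.3 CPM (median 4.16) and at weeks 10-16 from 0 to 233 (median 25.5). Its fitted difference did not reach an unadjusted p of 0.05 in that comparison. Among the origin factors Cdc6, which loads the ring, ran from 0 to 31.8 CPM at steady state (median 24.0) and from 20.3 to 211 early (median 85.9). Cdt1, its partner, ran from 0 to 159 (median 18.0) and from 16.3 to 119 (median 32.0), and Orc6 from 0 to 302 (median 181) and from 106 to 290 (median 256). All 3 origin factors overlapped between the groups.

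The clamp and its loader showed the same direction in all 6 of their genes, with a median difference of 0.69. Pcna ran from 204 to 600 CPM at steady state (median 401) and from 434 to 801 at weeks 3-4 (median 635), with a fitted difference of 0.64 (SE 0.24, adjusted p = 0.345, edgeR). Rfc2, a loader subunit, ran from 43.1 to 847 CPM (median 294) and from 529 to 712 (median 613). Without replicate 1 the steady-state range of Rfc2 ended at 468 CPM, below every early library. The fitted difference was 1.01 (SE 0.38, adjusted p = 0.354, edgeR). Prim1 ran from 0 to 240 CPM at steady state (median 194) and from 238 to 352 early (median 297), so the ranges touched only at their ends. Slbp, which binds histone messengers, ran from 149 to 645 CPM (median 359) and from 539 to 780 (median 626), and Rpa2, a subunit of the single-strand binding protein, from 0 to 364 (median 118) and from 202 to 432 (median 260), both with overlap. Without replicate 1 they ended at 504 and 183 CPM, below every early library. For Rfc2, Slbp and Rpa2 alike, the 4 early libraries that also lay nearer to HPC-2 were kept. The share of all genes without overlap after leaving out replicate 1 was not counted. Rpa2 did not reach an unadjusted p under 0.05 in any comparison.

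**Figure D3:**
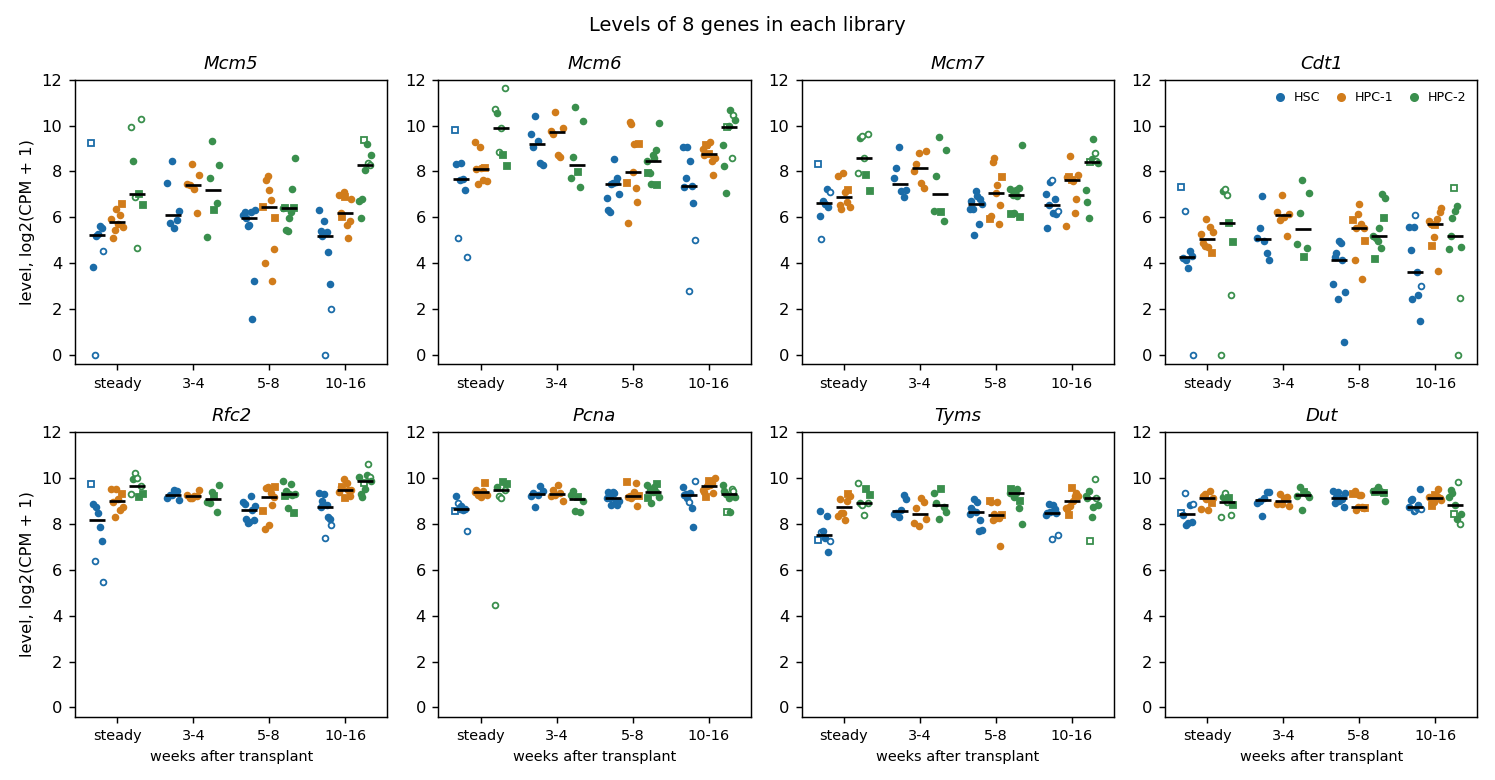
Level of Mcm5, Mcm6, Mcm7, Cdt1, Rfc2, Pcna, Tyms and Dut as log2(CPM + 1) (vertical axis) in each library by window (horizontal axis), with HSC in blue, HPC-1 in orange and HPC-2 in green. Bars are medians, open symbols mark libraries under 10000 detected genes and squares mark libraries in a nearly identical pair. Rfc2 in HSC lies between 529 and 712 CPM at weeks 3-4 in all 6 libraries, while Mcm5 spreads from 0 to 604 CPM at steady state.

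Later HSC libraries held less of these messengers than the early ones. At weeks 5-8 the summed level ran from 3580 to 7448 CPM (median 5559) and at weeks 10-16 from 3678 to 7538 (median 5239), in both cases below every library of weeks 3-4. Against steady state the median fitted difference was 0.05 at weeks 5-8 and 0.13 at weeks 10-16, beside -0.03 and -0.05 for all genes. With another scaling of the libraries (relative log expression, RLE) these medians were -0.36 and -0.13, and those of all genes moved too, to -0.34 and -0.22. Without steady-state replicate 1 the medians of the set were 0.43 and 0.42, beside -0.01 and -0.04 for all genes. In the full fit with edgeR 0 of 38 genes were called in either window. Over all genes 0.0239% were called higher and 0% lower at weeks 5-8, and 0% in both directions at weeks 10-16. At weeks 5-8, 5 genes were higher and 1, Mcm10 at -3.27, was lower at an unadjusted p under 0.05, where 3.57% and 1.98% of all genes were. DESeq2 called 0 and voom 5 (Dut, Rfc4, Tyms, Pcna and Prim1), and over all genes 37 and 758. At weeks 10-16, 4 were higher at that level (Tyms, Pcna, Rfc4 and Slbp) beside 1.78% of all genes, and both other tools called 0 of the set, and 26 (DESeq2) and 33 (voom) of all genes.

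The early and late HSC windows, which do not use the steady-state libraries, were also set against each other. Week and run of description numbers cannot be told apart in this contrast. In weeks 3-4 against weeks 10-16, 36 of 38 fitted differences were positive, with a median of 0.99 against 0.04 for all genes. The test called 0 of 38 (0% of all genes higher, 0.136% lower), 4 were higher at an unadjusted p under 0.05 where 2.46% of all genes were, and DESeq2 and voom called 1 each (Mcm7 and Orc1), of 275 and 84 over all genes. The smallest p was that of Mcm7 at 1.11 (SE 0.39, adjusted p = 0.228, edgeR), and Mcm2 and Mcm6 both stood at 1.48. Without the 4 early HSC libraries that lay nearer to HPC-2 the median of the set was 0.51, and Mcm2 went to -0.03. The same omission left the median against steady state at 0.84 and turned Mcm2 to -0.32.

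Other measures moved with the early HSC libraries. Mitochondrial genes took 0.294% to 0.826% of their counts, where steady-state HSC had 0.793% to 3.18%. The list chosen for HPC-2 (Cd48, Slamf1, Pf4, Itga2b, Gata1 and Gp1bb, all 6 detected) summed to 1190.0 to 2135 CPM at weeks 3-4 (median 1619) and to 400.1 to 2134 at steady state (median 478), and they stayed high at weeks 5-8, when the replication genes were lower, at 1026 to 4003 (median 1830.1). HPC-2 itself had medians of 1501 CPM at weeks 3-4 and 1478 at steady state, so the list does not separate HPC-2 from early HSC. Pf4, a megakaryocyte gene, had medians of 1019 and 331 CPM early and at steady state, and Cd48, by whose absence HSC are sorted, 20.9 and 2.72. The stem cell markers (Slamf1, Hlf, Procr, Mecom, Fgd5 and Mycn, all 6 detected) summed to 210.5 to 455 CPM early (median 364) and 190.2 to 767 at steady state (median 715), and Hlf had medians of 61.8 and 184. Markers of other blood cells were summed in the same groups. The 4 megakaryocyte genes, of which Pf4 and Itga2b are in the list for HPC-2 too, summed to 785 to 1706 CPM early (median 1227) and 313 to 1160 at steady state (median 504), and the 5 erythroid genes to 86.2 to 623 (median 125) and 6.01 to 2883 (median 65.1). The 7 granulocyte genes summed to 1.32 to 7692 CPM early (median 938) and 0 to 9106 at steady state (median 2758), and the 5 monocyte genes to 0 to 125 (median 35.9) and 0 to 461 (median 27.7). The 3 B cell genes reached 47.9 to 117 CPM early (median 67.2) with Cd79a and Ms4a1 at 0 in all those libraries, beside 0 to 441 (median 57.9) at steady state. The 4 T cell genes reached at most 2.86 and 2.30 CPM, with Cd3e, Cd3g and Trac at 0 in all early libraries. The part of the mitochondrial share and of these markers in the replication values was not tested.

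In HPC-1 at weeks 3-4 the smallest p-values of the set were those of MCM ring genes, and again no gene passed the test. The sum of Mcm2 to Mcm7 ran from 512 to 1384 CPM at steady state (median 641) and from 892 to 3842 at weeks 3-4 (median 1891). All 6 fitted differences were positive, with a median of 1.20, and all 6 had an unadjusted p under 0.05. Over the set 13 genes were higher at that level, where 3.71% of all genes were, and the median was 0.64 (all genes 0.03) with 27 of 38 positive. With the replicate number and the description run as a block the medians were 0.41 and 0.28, beside 0.06 and 0.07 for all genes. The edgeR test called 0 of 38 (0% of all genes higher, 0.0162% lower), DESeq2 4 higher (Mcm5, Mcm3, Mcm6 and Mcm2) and voom 7, of 210 and 864 over all genes. The clamp and loader group had a median of -0.07 and nucleotide synthesis 0.08. In HSC they were 0.69 and 1.21 in the same window, and the difference between the populations against steady state was not tested.

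Mcm5 in HPC-1 ran from 33.4 to 95.2 CPM at steady state (median 55.3) and from 72.8 to 316 at weeks 3-4 (median 171), with overlap at the ends, and differed by 1.49 (SE 0.46, adjusted p = 0.250, edgeR). Mcm6 ran from 173 to 619 CPM (median 275) and from 395 to 1566 (median 832). Mcm3 ran from 58.9 to 182 CPM (median 83.2) and from 103 to 670 (median 231). Each of these 3 ring genes overlapped between the groups. Tyms did not share the direction, with 290 to 634 CPM at steady state (median 436) and 241 to 563 early (median 354), and Rfc2 was nearly level, at 315 to 748 (median 518) and 565 to 712 (median 600.3).

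The summed level of HPC-1 was 7276 to 11924 CPM at weeks 3-4 (median 8909), 3690 to 11061 at weeks 5-8 (median 6874) and 7186 to 10031 at weeks 10-16 (median 8259), and all windows overlapped steady state. At weeks 5-8 the edgeR test called 0 of 38 (0% of all genes in both directions), Mcm3 (0.93) and Rfc3 (-0.49) had an unadjusted p under 0.05 beside 1.37% of all genes higher and 1.58% lower, and the median was 0.13. At weeks 10-16 it called 0 of 38 (0% of all genes), Rfc2 (0.40) had an unadjusted p under 0.05 (1.35% of all genes higher), and the median was 0.33 with 31 of 38 positive. Between the early and late windows 0 of 38 were called (0% of all genes), Mcm10 (1.98), Mcm5 (1.07) and Rpa1 (1.06) had an unadjusted p under 0.05 (2.02% of all genes higher), and the median was 0.24. DESeq2 and voom called 0 of the set in these 3 comparisons. Over all genes DESeq2 called 6, 10 and 18, and voom 13, 40 and 40.

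In HPC-2 the first weeks after transplant had lower medians than steady state, and no gene passed the test. The summed level was 5685 to 13640 CPM at weeks 3-4 (median 7690), 6523 to 10545 at weeks 5-8 (median 7913) and 7216 to 14478 at weeks 10-16 (median 11747), beside 7377 to 14663 (median 11554) at steady state. Within the late window the 10-week libraries lay at 7216 to 9692 CPM, the 13-week libraries at 11188 to 13713 and the 16-week libraries at 11747 to 14478. The late window holds 3 HPC-2 libraries of fewer than 10000 detected genes, at 13 and 16 weeks, and the steady-state group 4.

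The Mcm2 to Mcm7 sum in HPC-2 followed the same course, with medians of 2127 CPM at steady state, 1036 at weeks 3-4, 843 at weeks 5-8 and 2852 at weeks 10-16, and with overlapping ranges. Against steady state the edgeR test called 0 of 38 genes at weeks 3-4, at weeks 5-8 and at weeks 10-16, and 0% of all genes in both directions in each. The medians were -0.22, -0.33 and -0.09 (all genes 0.29, 0.29 and 0.12). Without the nearly identical libraries and those of fewer than 10000 detected genes they were -0.59, -0.69 and -0.37 (all genes 0.56, 0.68 and 0.35). In the full fit, at an unadjusted p under 0.05 there were 0 genes of the set at weeks 3-4 and 0 at weeks 10-16, where 5.82% and 7.16% of all genes were. At weeks 5-8, 1 was higher (Dut, 0.66) and 5 were lower (Mcm6, Mcm7, Mcm5, Mcm4 and Pold1), beside 6.22% and 1.20% of all genes. Mcm6 at weeks 5-8 ran from 169 to 1108 CPM (median 354) against 303 to 3183 at steady state (median 953), and differed by -1.33 (SE 0.49, adjusted p = 0.310, edgeR). Pold1 turned from -2.26 to 0.79 without libraries of fewer than 10000 detected genes. Weeks 3-4 against weeks 10-16 gave 0 of 38 calls (0% of all genes), 2 lower at that unadjusted level (0.320% of all genes), Rfc2 (-0.58) and Tk1 (-0.84), and a median of -0.19. DESeq2 and voom called 0 of the set in all 4 comparisons. Over all genes DESeq2 called 167, 179, 245 and 38, and voom 1, 0, 0 and 4.

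Over the 72 transplanted libraries, each population was averaged over the 3 windows with equal weight, without any steady-state library. HSC were lower than HPC-2 in 8 genes of the set and higher in 0, where 3.69% of the 14075 genes tested were called lower and 4.39% higher. Of the 38 differences 34 were negative, all but Pole, Rfc3, Prim1 and Pcna, with a median of -0.67 against -0.04 for all genes. At an unadjusted p under 0.05, 18 were lower, where 10.4% of all genes were. The helicase group gave 5 of the 8 calls (Mcm5, Mcm10, Mcm3, Mcm6 and Mcm7), and Rfc2, Cdt1 and Rrm1 were the others. The polymerase and primase group gave 0 calls of 6 and the Okazaki and single-strand group 0 of 4.

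Mcm5 ran from 0 to 350 CPM in transplanted HSC (median 50.9, n = 24) and from 34.6 to 654 in HPC-2 (median 107, n = 24), a difference of -1.67 (SE 0.37, adjusted p = 0.00164, edgeR). The ranges overlapped, with HSC lower at both ends. The gene lies at chr8:75109569-75128439 on the plus strand (GRCm38, GENCODE M21). Rfc2 ran from 169 to 712 CPM (median 455) and from 353 to 1589 (median 659), a smaller difference of -0.55 with a smaller error (SE 0.12, adjusted p = 0.00208, edgeR). The gene lies at chr5:134581366-134601805 on the plus strand. These 2 calls held under all 9 other settings that were tried. Mcm10 ran from 0 to 137 CPM in HSC (median 1.59, with 6 libraries at 0) and from 0 to 262 in HPC-2 (median 21.0), a difference of -2.20 (SE 0.60, adjusted p = 0.0122, edgeR).

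Mcm3 differed by -1.21 (SE 0.37, adjusted p = 0.0267, edgeR), from a median of 129 CPM in HPC-2 to 81.3 in HSC. Mcm6 differed by -0.97 (SE 0.30, adjusted p = 0.0304, edgeR), with 5.84 to 1379 CPM in HSC (median 196) and 132 to 1800 in HPC-2 (median 390). Cdt1 differed by -1.24 (SE 0.39, adjusted p = 0.0345, edgeR), with 0.477 to 119 CPM in HSC (median 19.5) and 0 to 195 in HPC-2 (median 35.8). The ranges of all 3 overlapped widely. Mcm7 (-0.77) and Rrm1 (-0.91), called with adjusted p of 0.0449 and 0.048 in edgeR, had medians of 110 and 197 CPM in HSC and 149 and 365 in HPC-2. Without the 4 early HSC libraries nearer to HPC-2, the calls of the set were Mcm5 (-1.94) and Rfc2 (-0.54), and the median was -0.76. Over the 9 other settings the call of Mcm7 was lost in 5, among them the replicate block (adjusted p = 0.0833, edgeR). The calls of Rrm1 and Cdt1 were lost in 3 each, of Mcm3 and Mcm6 in 2 each and of Mcm10 in 1.

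HSC were lower than HPC-1 in 3 genes, where 5.24% of all genes were called lower, and higher in 0, where 3.90% were higher. The median was -0.46 against -0.09 for all genes, 32 of 38 were negative, and 10 were lower at an unadjusted p under 0.05, where 11.1% of all genes were. Rfc2 had a median of 634 CPM in transplanted HPC-1 and fell by 0.42 on the log2 scale in HSC (SE 0.12, adjusted p = 0.017, edgeR). Mcm6 had 52.1 to 1566 CPM in HPC-1 (median 465) and differed by -0.90 (SE 0.30, adjusted p = 0.0422, edgeR), and Cdt1 had 8.82 to 124 CPM (median 53.7) and differed by -1.16 (SE 0.39, adjusted p = 0.0452, edgeR). Without the 4 early HSC libraries nearer to HPC-2, 0 genes of the set were called, Rfc2 had an adjusted p of 0.141 in edgeR, and the median of the set went from -0.46 to -0.59. The calls over all genes went from 1287 to 651. Over the 9 other settings the call of Mcm6 was lost in 6, of Cdt1 in 4 and of Rfc2 in 1.

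No gene of the set passed the test between HPC-1 and HPC-2 after transplant. It called 0 of 38, where 5.54% of all genes were higher in HPC-1 and 2.32% lower. The median was -0.13 (all genes 0.01), and 5 genes had an unadjusted p under 0.05, Tk1 (-0.57), Mcm10 (-1.29), Tyms (-0.34) and Mcm5 (-0.72) lower in HPC-1 and Pcna (0.23) higher, beside 6.13% and 10.6% of all genes. DESeq2 called 0 and voom 1, Tyms, of 1092 and 2025 over all genes.

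Whether the early-to-late course differs between populations was tested directly. The difference of weeks 3-4 minus weeks 10-16, HSC minus HPC-2, was positive for 32 of 38 genes, with a median of 1.09 against -0.12 for all genes. With RLE scaling these were 1.47 and 0.22. Rfc2 was called as the only 1 of 38, with the higher value in HSC, where 0.277% of all genes were higher and 2.07% lower. In HSC it went from 529 to 712 CPM early (median 613) to 169 to 656 late (median 422), and in HPC-2 from 365 to 836 early (median 547) to 570 to 1589 late (median 953). The courses thus ran in opposite directions by the medians, with a difference of 1.15 (SE 0.32, adjusted p = 0.0381, edgeR). The call of Rfc2 was lost in 6 of 9 other settings, among them without libraries of fewer than 10000 detected genes (adjusted p = 0.206) and without the 4 early HSC libraries (adjusted p = 0.632), both in edgeR. Rrm2 (2.35) and 7 more genes reached an unadjusted p under 0.05, all higher, so 9 of 38 with Rfc2 beside 3.92% of all genes.

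Against HPC-1 the same difference was called for 0 of 38 genes (0% of all genes in both directions). It was positive for 35 of 38, with a median of 0.65 against 0.04 for all genes. Rfc2 had the smallest p, at 0.91 (SE 0.32, adjusted p = 0.415, edgeR), and it was the only gene of the set under an unadjusted p of 0.05, beside 2.05% of all genes higher. DESeq2 and voom called 0.

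**Figure D4:**
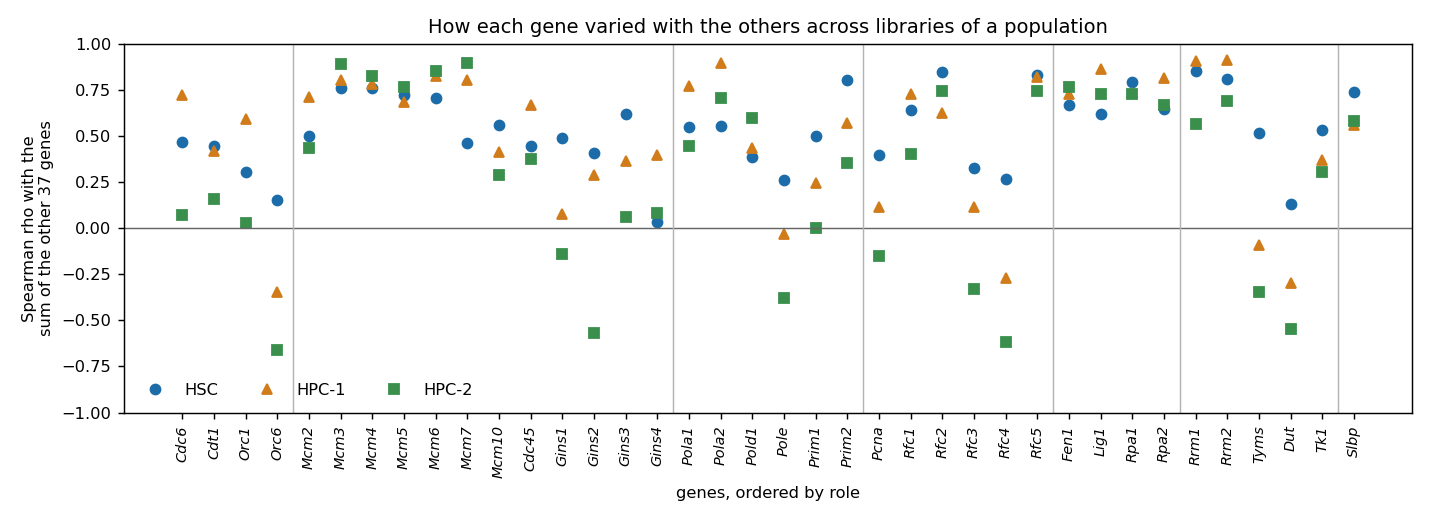
Spearman's rho of each of the 38 genes (horizontal axis, by role) with the sum of the other 37 (vertical axis) over the libraries of a population, for HSC (n = 32), HPC-1 (n = 32) and HPC-2 (n = 31). Mcm7 stands at 0.90 and Orc6 at -0.66 in HPC-2, the widest spread of the 3 populations.

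Within a population the genes did not all move together from library to library. The 15 pairs among Mcm2 to Mcm7 were all positively related, with median rho of 0.59 in HSC, 0.70 in HPC-1 and 0.76 in HPC-2. Over all 703 pairs of the set the medians were 0.33, 0.30 and 0.14, and 617, 517 and 435 pairs were positive. Nearest to the rest of the set in HSC were Rrm1 (0.85), Rfc2 (0.85), Rfc5 (0.83) and Rrm2 (0.81), and in HPC-1 Rrm2 (0.91), Rrm1 (0.91) and Pola2 (0.90). In HPC-2 they were Mcm7 (0.90), Mcm3 (0.89) and Mcm6 (0.85).

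A small group ran the other way in the progenitors. In HPC-2, 9 genes had a negative rho with the rest, led by Orc6 (-0.66), Rfc4 (-0.62), Gins2 (-0.57) and Dut (-0.55), and in HPC-1 Orc6 (-0.35), Dut (-0.30) and Rfc4 (-0.27) were lowest. Dut, Rfc4 and Orc6 are also among the 6 most abundant of the set per kilobase. Transcript length and rho were themselves related over the 38 genes, at 0.36, 0.39 and 0.38 in the 3 populations. The values share libraries, depth and detection, and are given as a description.

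**Figure D5:**
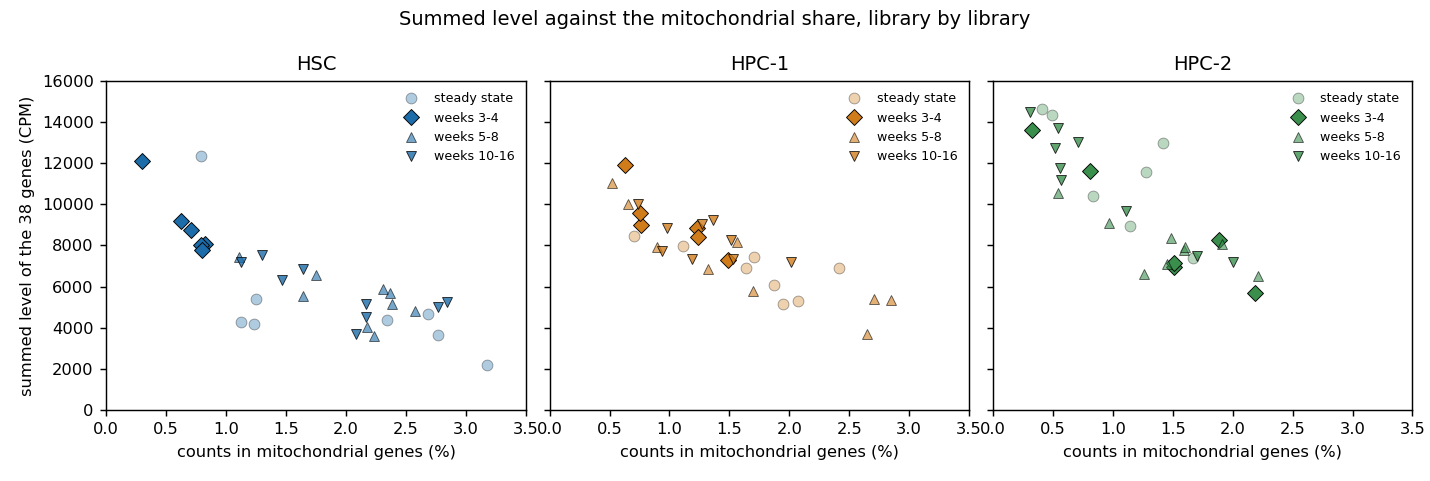
Summed level of the 38 genes (CPM, vertical axis) against the share of counts on mitochondrial genes (percent, horizontal axis) in each library, with 1 panel per population and markers by window. Libraries with a low mitochondrial share have the higher sums in all 3 panels, with rho of -0.73, -0.86 and -0.85.

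The summed level ran against the mitochondrial share of a library in every population, with rho of -0.73 in HSC, -0.86 in HPC-1 and -0.85 in HPC-2. With total counts rho was 0.55, 0.45 and 0.59, and with the number of detected genes 0.08, 0.16 and -0.56. So in HPC-2 the libraries with fewer detected genes had the higher sums, and the part of detection in those sums was not tested. The mitochondrial share ran from 0.294% to 3.18% of the total from which the CPM is also computed. The part of that shared total in the relation was not tested.

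Genes of the same pathways outside the set were counted from 3 further lists. Of 38 other replication genes, such as origin, checkpoint and chromatin assembly factors, 36 were tested in HSC at weeks 3-4 against steady state, and 31 were positive with a median of 1.08, 0 called and 2 at an unadjusted p under 0.05. Other nucleotide genes were positive in 20 of 27 (median 0.42), and S phase regulators in 14 of 23 (median 0.25), with 0 called in both. At steady state the other replication genes had a median of -0.90 in HSC against HPC-2, with 29 of 36 negative and 0 called. The further nucleotide genes had -0.60 and the regulators -0.27, also with 0 called.

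In transplanted HSC against HPC-2, 3 of the 38 other replication genes were lower and 0 higher, with a list median of -0.50, where 3.69% of all genes were lower and 4.39% higher. They were Chtf18 of an alternative clamp loader (-3.77), the helicase Recql4 (-3.18) and Uhrf1, which directs DNA methylation to new strands (-1.02). Of the other nucleotide genes 2 of 27 were lower, the folate enzymes Mthfd1 (-1.52) and Shmt2 (-1.30). Among the 23 regulators the inhibitor Cdkn1c was higher (3.12), and Fbxo5 (-1.07) and E2f8 (-1.82) were lower. Against HPC-1, Cdkn1c was also higher in HSC (2.84), Cdkn1a was lower (-2.69), and Chtf18 (-3.66) and the polymerase subunit Pold3 (-1.14) were lower, where 5.24% of all genes were lower and 3.90% higher. In transplanted HPC-1 against HPC-2, Asf1b, a histone chaperone (-0.94), and E2f8 (-1.82) were lower, where 2.32% of all genes were. The difference in course of HSC minus HPC-2 was called for Tfdp1, a partner of the E2F factors (1.64, adjusted p = 0.0373, edgeR), where 0.277% of all genes were higher.

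Over the 20 comparisons 10 genes of the set were called at least once (Mcm3, Mcm4, Mcm5, Mcm6, Mcm7, Mcm10, Cdt1, Rfc2, Rrm1 and Tyms), and 28 were not called in any. Of those 28, 8 never reached an unadjusted p under 0.05: Cdc6, Gins2, Gins3, Orc1, Orc6, Pole, Prim2 and Rpa2. All 38 passed the filter on low counts in every fit. Gins2 had medians of 69.1 and 131 CPM in HSC at steady state and at weeks 3-4, and between 82.9 and 166 in the HPC-2 windows. Pcna and Dut, the steadiest genes, were called nowhere with edgeR. Pcna medians lay between 401 and 635 CPM in the HSC windows, and Dut medians between 350 and 561, the lowest in each case at steady state.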

How the data were processed

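The authors deposited whole-number counts per gene for 95 libraries. Tools named in the submitters' processing notes are Trimmomatic 0.36, HISAT2 2.0.5, Picard and featureCounts, with the genome build GRCm38 (mm10). How strand was counted and which annotation was used are not given in the sources used here, so reads of antisense neighbours cannot be told apart. Gene lengths and positions come from GENCODE M21, where 99.8% of the IDs were found, and 3433 entries had no symbol.

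Titles gave the 27 groups. For 2 libraries a title reading 10k was taken as 10 weeks, and for 1 HPC-2 library titled 3 weeks the treatment label names no transplant.

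CPM is the count divided by the library total, scaled to 1000000. Genes were kept by edgeR's expression filter, scaled by TMM and tested by the quasi-likelihood F test with Benjamini-Hochberg adjustment over all genes of a fit, called at an adjusted p under 0.05. There was 1 fit of the 23 steady-state libraries, 1 per population over 4 windows, and 1 of the 72 transplanted libraries. The SE comes from the F statistic. Same-numbered libraries were not treated as pairs. The code was tested on simulated data. Alternatives were RLE scaling, no filter, DESeq2, a replicate block, a block for every 12 description numbers and left-out libraries. Limma voom with sample weights was added after the values were seen. So were the omission of 4 early HSC libraries and the joint omission of low-detection and nearly identical libraries. The genes and lists were chosen with earlier results of these data known, and 2 marker genes are not reported here. Called genes are named in each comparison, and levels by library are given for the genes called most often and for the most abundant gene of each role. Computation used R 4.3.3, edgeR 4.0.16, limma 3.58.1, DESeq2 1.42.0, Python 3.11.15, pandas 2.3.3, numpy 2.4.6, scipy 1.17.1 and matplotlib 3.10.9.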

Additional observations from a re-analysis of the deposited data

Results flagged for a closer look

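The summed level of the 38 genes was looked at for a library far from its group in 12 groups of population and window, where chance marks about 1 in 20, and 2 were found. HSC steady-state replicate 1 stood at 12331 CPM, where the other 7 libraries of the group ended at 5393. It has fewer than 10000 detected genes and is one of the nearly identical libraries, paired with an HPC-2 library at 13 weeks. Its Rfc2, Mcm5 and Rrm2 were the highest of the steady-state HSC, at 847, 604 and 645 CPM, while Cdc45 had no counts. HSC at 3 weeks replicate 3 stood at 12113 CPM, where the other 2 libraries of that week began at 8728.

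The course of Rfc2 from weeks 3-4 to weeks 10-16 differed between HSC and HPC-2 by 1.15 on the log2 scale (SE 0.32), in a test of the difference itself. The adjusted p was 0.0381 in edgeR, and the call was lost in 6 of 9 other settings.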

How the results depend on the processing

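Counts of called genes among the 38 changed with several settings. In steady-state HSC against HPC-1 (0 calls) there were 3 without libraries under 10000 detected genes, 3 without these and the nearly identical libraries, and 5 with voom. Over all genes these settings called 353, 447 and 1016, where the full edgeR fit called 65. In steady-state HSC against HPC-2 (3 calls) there were 0 without a filter, 5 with DESeq2, 1 without low libraries, 11 without nearly identical libraries, 11 without both, 0 with the replicate block, 0 with the run block and 1 with voom. Over all genes these called 10, 354, 69, 1574, 390, 1, 2 and 62, where the full edgeR fit called 151. HPC-1 against HPC-2 (0 calls) gave 4 with DESeq2, 7 without nearly identical libraries and 7 without both, beside 258, 1544 and 490 over all genes. HSC at weeks 3-4 against steady state (0 calls) gave 2 with DESeq2 and 8 with voom, weeks 5-8 gave 5 with voom, and weeks 3-4 against 10-16 gave 1 with DESeq2 and 1 with voom. HPC-1 at weeks 3-4 gave 4 with DESeq2 and 7 with voom. HPC-2 at weeks 3-4 gave 15 with the run block, where 2109 of all genes were called and the median of all genes was 9.11. Only 1 steady-state library of HPC-2, of low detection, shares a run with weeks 3-4. Transplanted HSC against HPC-1 (3 calls) gave 1 without a filter, 5 with DESeq2, 1 without nearly identical libraries, 17 with voom and 0 without the 4 early HSC libraries. Over all genes these called 1738, 1347, 1219, 3312 and 651, where the full edgeR fit called 1287. HSC against HPC-2 (8 calls) gave 15 with RLE, 5 without a filter, 16 with DESeq2 and 2 without the 4 early HSC libraries. Over all genes these called 1388, 1337, 1688 and 597, where the full edgeR fit called 1138. Transplanted HPC-1 against HPC-2 (0 calls) gave 1 with voom. The HSC minus HPC-2 difference in course (1 call) gave 3 with DESeq2, and 0 without a filter, without low libraries, without nearly identical libraries, without both, with voom and without the 4 early HSC libraries. The causes were not tested. Leaving out 1 library gave 0 to 2, 0 to 9 and 0 to 1 calls in the 3 steady-state contrasts and 0 in the 12 comparisons within a population, and was not run for the transplanted fit.

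Signs turned for Pold1 in steady-state HPC-1 against HPC-2 with voom (0.36) and in HPC-2 at weeks 5-8 without low libraries (0.79), with the run block (0.68) and with voom (1.25). They also turned for Mcm2 in HSC at weeks 3-4 without the 4 early HSC libraries (-0.32 against steady state, -0.029 against weeks 10-16), and for Slbp in HSC at weeks 10-16 with the replicate block (-0.037). The replicate block left 3, 8 and 1 calls where there had been 3, 8 and 1 in the transplanted libraries, with Lig1 in place of Mcm7 in HSC against HPC-2. Same-numbered libraries deviated together with a median correlation of 0.003 to 0.13. The 8 same-numbered pairs of HSC with HPC-1 at steady state lay at 0.04 to 0.27. Differently numbered libraries were not set beside them, so the check cannot decide whether the numbers mark pairs. The numbers were not taken as pairs. Low depth limits genes such as Fen1, at 0 in 23 libraries.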
